A study of Mus musculus with 6 samples.

Results

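Perineuronal nets are lattices of extracellular matrix that wrap the cell body and proximal dendrites of certain neurons. The set described here holds 10 genes of that matrix, taken by symbol from the 50559 genes of a count table of mouse hypothalamus, and all 10 were found and had enough counts to be tested. They are the 4 lecticans Acan, Bcan, Ncan and Vcan, the 4 link proteins Hapln1 to Hapln4, tenascin R (Tnr) and the receptor phosphatase gene Ptprz1. The study sequenced total RNA of the hypothalamus from 3 wild-type libraries and 3 libraries of animals with the SRC-1 gene deleted, labelled SRC1 KO. SRC-1 is a coactivator of nuclear receptors, encoded by Ncoa1. The labels give no strain, age, sex, deleted exons or tissue restriction of the deletion, and do not say that the replicates were separate animals, so p-values measure the spread between these libraries, which may be technical.

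In a net, long chains of hyaluronan are made at the cell surface and lecticans, which are chondroitin sulfate proteoglycans, bind along them through their N-terminal domain. Link proteins lock each lectican onto hyaluronan, and trimers of tenascin R tie the C-terminal domains of several lecticans together. Ptprz1 gives rise to a membrane phosphatase and to phosphacan, its secreted proteoglycan form, which also binds tenascin R. The same families build looser matrix elsewhere, and Hapln2 with brevican and a versican form lies at nodes of Ranvier, the gaps between myelin segments. In the hypothalamus, nets have been described around neurons of the arcuate nucleus.

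None of the 10 net genes passed the adjusted threshold, where 0.834% of the 20257 tested genes did, 0.242% as higher and 0.592% as lower in the knockout (edgeR's quasi-likelihood test, Benjamini-Hochberg adjusted p under 0.05 over all tested genes). The link protein Hapln1 came nearest, at 1.49-fold higher in the knockout, followed by the lectican Vcan at 0.786 of its wild-type level. At an unadjusted p under 0.05 there were these 2 of 10, against 13.0% of all tested genes. The median log2 fold change was 0.113 over the 10 genes and 0.004 over all tested genes. Of the 10 values 8 were above 0 and 2 below, and 10352 of the 20257 tested genes were above 0. DESeq2 called 1 member, where it called 4.0% of genes, and edgeR without a filter on low counts 2, where it called 2.65%. No member passed with RLE factors (0.79% of genes called), library totals (0.326%), at least 1 CPM in 3 libraries (0.528%), limma-voom (0.508%, and 1.98% with sample quality weights) or a replicate block (0.765%). The groups did not overlap for 2 of 10 members, against 17.6% of all tested genes. With 1 library left out 0 members passed as well, where 0.174% to 1.25% of genes did (0.603% without wild-type replicate 2 and 1.02% without knockout replicate 3), and with both first replicates left out 0.142%.

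The deposited counts summed to between 36613507 and 46755553 per library. Ncoa1, the targeted gene, was read 5180, 4630 and 5406 times in the wild-type libraries against 1692, 1478 and 1766 times in the knockout libraries (edgeR log2 fold change -1.71 ± 0.065), so each library matched its label. Summed levels of 8 hypothalamic genes, none at 0 in any library, overlapped between the groups, at 609.8 to 689.4 CPM (counts scaled for library size) in wild type and 596.1 to 712.9 CPM in the knockout. Of these 8 genes 5 were lower on average, and the libraries of 2, both made by neurons of the arcuate nucleus, did not overlap. Pomc, the precursor of melanocortins, was at 77.05, 49.99 and 74.87 CPM in wild type against 6.46, 5.27 and 30.2 CPM in the knockout (edgeR adjusted p 0.375). Agrp, the melanocortin antagonist, was at 3.73, 5.33 and 12.8 CPM against 1.53, 1.26 and 2.65 CPM (adjusted p 0.24). The 5 pituitary markers summed to 9.06 to 20.4 CPM in wild type and 1.53 to 11.9 CPM in the knockout, which overlapped. Of 4 tested markers 1 was called as lower, Pitx1 (edgeR log2 fold change -3.70, adjusted p 0.00392), and Cga, a hormone subunit, stood at -5.62 (adjusted p 0.056). The hormone genes Gh and Prl were at 11.7 and 1.54 CPM in wild-type replicate 1 and 6.67 and 3.07 CPM in knockout replicate 1. In any other library they reached at most 0.529 CPM, with Gh at 0 in wild-type replicates 2 and 3 and Prl at 0 in wild-type replicate 2. The summed markers of mature oligodendrocytes, of ependymal cells and tanycytes, of meningeal fibroblasts and of neurons did not overlap between the groups. The 9 mature oligodendrocyte markers together were at 3808 to 4892 CPM in wild type and 6233 to 8382 CPM in the knockout. All 9 were higher on average and 5 were called in edgeR, where 0.834% of all tested genes were. The 7 ependymal and tanycyte markers were at 174.7 to 186.6 and 63.6 to 80.3 CPM, with all 7 lower and 5 called. The 6 meningeal fibroblast markers were at 59.2 to 219.9 and 52.1 to 58.0 CPM, with all 6 lower on average and 1 called. That gap was narrow, and only 2 of the 6 had groups without overlap. The 8 neuron markers were at 3635 to 3917 and 3985 to 4395 CPM, also without overlap, with 6 higher, 2 lower and 0 called. Taken singly, only 1 of these 8, Snap25, had groups without overlap, at 1040 to 1198 CPM in wild type and 1365 to 1418 CPM in the knockout. Summed markers of astrocytes (3944 to 3984 and 3677 to 3982 CPM) and of oligodendrocyte precursors (272 to 303.5 and 269.9 to 308 CPM) overlapped. Of the 8 astrocyte markers 4 were higher and 4 lower, and 2 were higher without overlap, against 8.58% of all tested genes. The microglia sum (130.8 to 152.7 and 147.3 to 167.3 CPM) and the endothelium and mural cell sum (152.4 to 207.1 and 202.4 to 231.5 CPM) overlapped too. All 4 microglia markers were higher, 2 of them without overlap. In bulk RNA, fewer cells of a type and less RNA per cell cannot be told apart, and the part of cell makeup or of the dissected region in the values below was not tested.

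The promoters of the 3 members with the lowest p are shown because they hold the DNA nearest to the starts of the genes whose levels differed most. They were chosen after the values had been seen. Each is the 250 bases before the start of the RefSeq transcript in the table, which for Hapln1 and Vcan lies inside the outermost start of the gene, 5′ to 3′ on the gene's strand, taken from a RefSeq table of GRCm38.p6 and found once, letter for letter, in GRCm39. They lie at chr13:89688505-89688754 (Hapln1, plus strand), chr3:87934819-87935068 (Hapln2, minus strand) and chr13:89890632-89890881 (Vcan, minus strand) of GRCm39. Capitals mark the searched motifs, on either strand.
Hapln1: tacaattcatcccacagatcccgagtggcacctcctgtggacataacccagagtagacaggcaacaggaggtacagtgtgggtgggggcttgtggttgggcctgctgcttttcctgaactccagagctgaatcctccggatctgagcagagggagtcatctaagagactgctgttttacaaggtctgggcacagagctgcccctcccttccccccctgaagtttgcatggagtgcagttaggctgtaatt
Hapln2: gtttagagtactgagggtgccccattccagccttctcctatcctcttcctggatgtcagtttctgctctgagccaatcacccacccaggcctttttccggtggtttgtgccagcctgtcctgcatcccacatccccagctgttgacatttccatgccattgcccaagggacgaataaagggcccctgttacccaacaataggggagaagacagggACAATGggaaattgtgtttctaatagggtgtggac
Vcan: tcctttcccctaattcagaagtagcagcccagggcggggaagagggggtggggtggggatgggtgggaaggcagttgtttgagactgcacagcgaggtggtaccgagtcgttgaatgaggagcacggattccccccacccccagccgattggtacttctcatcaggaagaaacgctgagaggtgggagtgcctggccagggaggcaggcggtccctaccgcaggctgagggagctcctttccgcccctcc
The motifs searched were AGGTCA, a core element of nuclear receptors, AGAACA, a core element of steroid receptors, and ACAATG and ACAAAG, forms of the SOX factor motif. The SOX motifs were added after the sequences had been seen. Of these 3 promoters only that of Hapln2 held a match, ACAATG once, a motif found in 11% of 27025 promoters. AGGTCA was in 13.8% of all promoters and in 0 of the 9 members matched, AGAACA in 16.2% and in 1 member (Bcan), and ACAAAG in 16.5% and in 1 member (Tnr). Hapln4 was not matched. G and C made up 54.4% of the Hapln1, 52.4% of the Hapln2 and 62.4% of the Vcan window, with a median of 52.0% over all promoters. A match is a description of the letters, not a binding site.

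Levels of different genes were compared as RPKM, scaled CPM divided by the length of all exons of the gene in kb. In wild type Ptprz1 (36.0 ± 2.60 RPKM; SD, n = 3 here and below) and Bcan (36.0 ± 3.46) stood highest and did not differ beyond their spread. Hapln4 (26.7 ± 3.18), Ncan (16.1 ± 1.31), Tnr (11.7 ± 0.666), Hapln2 (8.18 ± 2.23) and Vcan (2.65 ± 0.376) followed, each with libraries apart from its neighbours in the order. Acan (0.802 ± 0.0870) and Hapln1 (0.687 ± 0.0635) overlapped, and Hapln3 was lowest (0.146 ± 0.0240). Aggrecan is the lectican most often stained to show nets, and its gene was the lowest of the 4 lecticans per length here.

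The order was nearly the same in the knockout, at 39.4 ± 3.00 RPKM for Bcan, 38.5 ± 2.11 for Ptprz1, 29.6 ± 2.69 for Hapln4 and 15.9 ± 0.902 for Ncan. There Hapln2 (13.0 ± 3.57 RPKM) stood above Tnr (11.8 ± 0.453), with libraries that overlapped both Tnr and Ncan. Hapln1 (1.03 ± 0.0788 RPKM) stood above Acan (0.845 ± 0.101), with libraries apart. A gene whose transcripts leave out long exons, as versican forms do, has a true level above the value per full exon length.

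**Figure D1:**
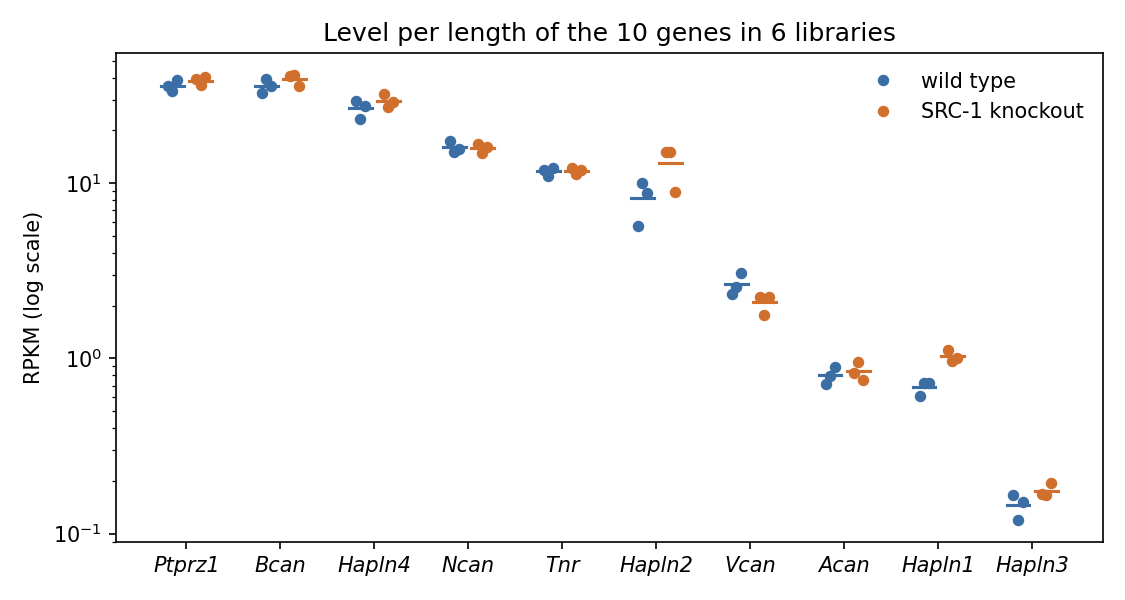
RPKM (log axis) of the 10 genes in each of 3 wild-type (blue) and 3 knockout (orange) libraries, ordered by the wild-type mean; points are libraries and bars are group means. The genes span from 0.146 RPKM for Hapln3 to 36.0 RPKM for Ptprz1 in wild type, and the colours separate for Hapln1 and, narrowly, for Vcan.

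The lecticans carry the chondroitin sulfate chains of the net. Brevican is a lectican of adult brain made by glia and neurons, and its RNA level was the highest of the lecticans. Bcan (chromosome 3, 87894838 to 87911134, minus strand, GRCm39, as for all coordinates here) had 251.3, 304.4 and 274.9 CPM in wild type and 314.9, 317.9 and 276.5 CPM in the knockout. Knockout replicates 1 and 2 lay above all wild-type libraries and knockout replicate 3 among them. The log2 fold change was 0.13 ± 0.0885 (SE; 95% interval -0.07 to 0.33; edgeR adjusted p 0.619).

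Neurocan, a lectican of glial and neuronal matrix that is more abundant in the young brain, was among the steadiest members. Ncan (chromosome 8, 70545735 to 70573494, minus strand) had 125.5, 107.5 and 112.1 CPM in wild type and 119.9, 107.1 and 115.2 CPM in the knockout. The groups overlapped. The log2 fold change was -0.01 ± 0.0769 (interval -0.18 to 0.16; adjusted p 0.970), and its sign turned to 0.05 without wild-type replicate 1.

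Aggrecan forms the dense nets of fast-spiking neurons. Acan (chromosome 7, 78702974 to 78764847, plus strand) had 5.54, 6.15 and 6.88 CPM in wild type and 6.41, 7.36 and 5.81 CPM in the knockout, from 226 to 292 counts a library. The groups overlapped, and the log2 fold change was 0.07 ± 0.139 (interval -0.24 to 0.38; adjusted p 0.894). Without wild-type replicate 1 or knockout replicate 2 its sign turned, to -0.001 and -0.018.

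Versican, which precursor cells of oligodendrocytes and fibroblasts make among others, was the one lectican with separate groups. Vcan (chromosome 13, 89803429 to 89891146, minus strand) had 35.8, 39.3 and 47.1 CPM in wild type and 34.2, 27.3 and 34.4 CPM in the knockout. All knockout libraries lay below all wild-type libraries, as in 9.03% of tested genes, but wild-type replicate 1 and knockout replicate 3 were only 1.34 CPM apart. The log2 fold change was -0.35 ± 0.122 (interval -0.62 to -0.07; unadjusted p 0.0191, adjusted p 0.258). Without a filter on low counts, edgeR gave Vcan an adjusted p of 0.0259, in a fit that called 2.65% of its genes, and the other 14 alternatives left it above 0.05. The precursor marker Pdgfra had 87.4, 88.7 and 100.4 CPM in wild type and 87.5, 78.2 and 97.8 CPM in the knockout. Of the 7 precursor markers, 4 were higher and 3, Pdgfra among them, lower in the knockout, with a median log2 fold change of 0.026. Summed meningeal fibroblast markers were 132.3, 219.9 and 59.2 CPM in wild type, lowest in replicate 3, where Vcan was highest. In the knockout they were 55.1, 52.1 and 58.0 CPM, all below wild type but close to wild-type replicate 3. Only 2 of these 6 markers had groups without overlap.

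The link proteins were all above their wild-type mean in the knockout, with a median log2 fold change of 0.42 over the 4 genes. Hapln1, the cartilage link protein that stabilises lecticans in nets, was the member nearest the threshold. Hapln1 (chromosome 13, 89688654 to 89759951, plus strand) had 3.16, 3.75 and 3.71 CPM in wild type and 5.74, 4.97 and 5.15 CPM in the knockout, from 129, 142 and 154 and from 241, 197 and 235 counts. Every knockout library lay above every wild-type library, as in 8.58% of tested genes. The log2 fold change was 0.58 ± 0.143 (interval 0.26 to 0.90; unadjusted p 0.00216, adjusted p 0.0959 in edgeR). DESeq2, which called 4.0% of genes, gave an adjusted p of 0.0397, and edgeR without a filter on low counts 0.0408. With 1 library left out, Hapln1 passed in 0 of 6 fits (adjusted p 0.127 to 0.391), with log2 fold changes from 0.50 to 0.62. Over all 15 alternatives the adjusted p ran from 0.0397 to 0.863.

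Hapln2, also called Bral1, is the link protein of the node of Ranvier and is made by oligodendrocytes. Its average difference was the largest of the 10 and also the least certain. Hapln2 (chromosome 3, 87927865 to 87934818, minus strand) had 19.2, 33.7 and 29.4 CPM in wild type and 50.7, 50.4 and 29.9 CPM in the knockout. Knockout replicates 1 and 2 were far above wild type, and knockout replicate 3 lay inside the wild-type range. The log2 fold change was 0.67 ± 0.308 (interval -0.12 to 1.46; adjusted p 0.469), and with 1 library left out it ran from 0.47 without wild-type replicate 1 (adjusted p 0.729) to 0.89 without knockout replicate 3 (adjusted p 0.229). Without both first replicates it was 0.34. The coefficient of variation was 27.2% in wild type and 27.3% in the knockout, against at most 16.4% for any other member in either group. The summed mature oligodendrocyte markers were 3808, 4892 and 4747 CPM in wild type and 8382, 7109 and 6233 CPM in the knockout, lowest in wild-type replicate 1 as Hapln2 was. In knockout replicate 3 those markers were above all wild-type libraries while Hapln2 was not.

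Hapln4, or Bral2, binds brevican around inhibitory synapses and is made by neurons. Hapln4 (chromosome 8, 70536179 to 70543512, plus strand) had 105.5, 83.2 and 98.2 CPM in wild type and 116.1, 97.2 and 104.0 CPM in the knockout, with overlapping groups and a log2 fold change of 0.15 ± 0.0976 (interval -0.07 to 0.36; adjusted p 0.616). Hapln3, a link protein of vessel walls, was close to the limit of the assay. Hapln3 (chromosome 7, 78766775 to 78783100, minus strand) was counted 27, 18 and 25 times in wild type against 28, 26 and 35 times in the knockout. Its log2 fold change of 0.26 ± 0.261 (interval -0.32 to 0.84; adjusted p 0.770) was not resolved at this depth.

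Tenascin R, made mainly by oligodendrocytes and some neurons, was the steadiest member. Tnr (chromosome 1, 159351170 to 159759299, plus strand) had 242.2, 221.9 and 247.5 CPM in wild type and 246.2, 228.7 and 242.3 CPM in the knockout. All knockout libraries lay inside the wild-type range, with a log2 fold change of 0.01 ± 0.070 (interval -0.14 to 0.17; adjusted p 0.969). Scaling by library totals alone turned its sign, to -0.02. Ptprz1 (chromosome 6, 22875302 to 23052915, plus strand), expressed in astrocytes and oligodendrocyte precursors, had 368.8, 341.4 and 394.6 CPM in wild type and 401.1, 369.1 and 410.3 CPM in the knockout. Those groups overlapped as well, at 0.10 ± 0.0785 (interval -0.08 to 0.27; adjusted p 0.708).

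**Figure D2:**
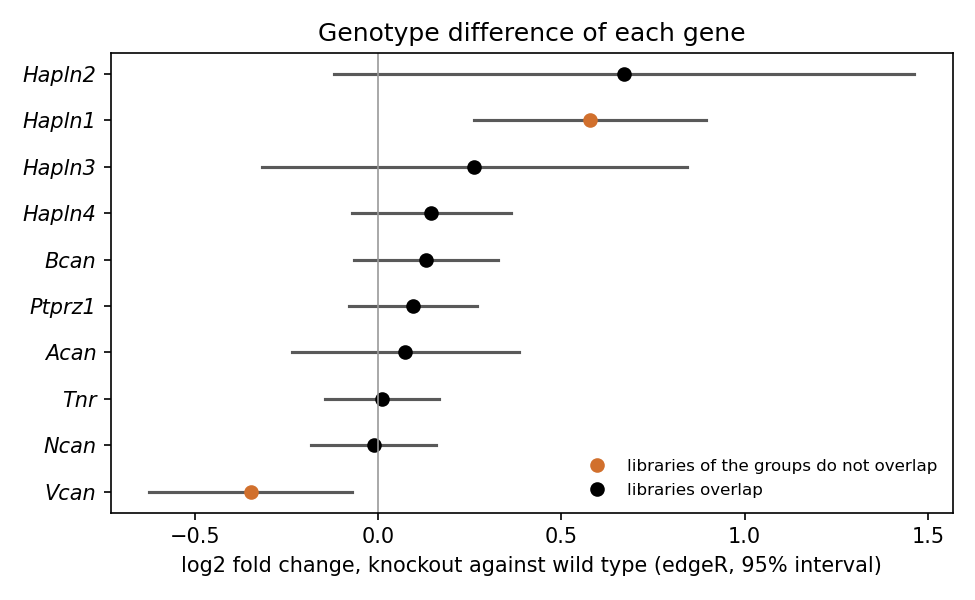
Log2 fold change of each gene, knockout against wild type, from edgeR, with its 95% interval; orange points mark genes whose groups share no range. Only the intervals of Hapln1 (0.26 to 0.90) and Vcan (-0.62 to -0.07) leave out 0, before adjustment over all genes.

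Hapln1 and the oligodendrocyte sum were both separate between the groups, and both were highest in knockout replicate 1. In knockout replicates 2 and 3 Hapln1 was close, at 4.97 and 5.15 CPM (197 and 235 counts), and the sum was 7109 and 6233 CPM. The ependymal and tanycyte sum was lower in every knockout library, as Vcan was. Of the knockout libraries that sum was highest in replicate 2 (80.3 CPM), where Vcan was lowest. The order of 3 libraries is a description, and the part of cell makeup in these genes was not tested.

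**Figure D3:**
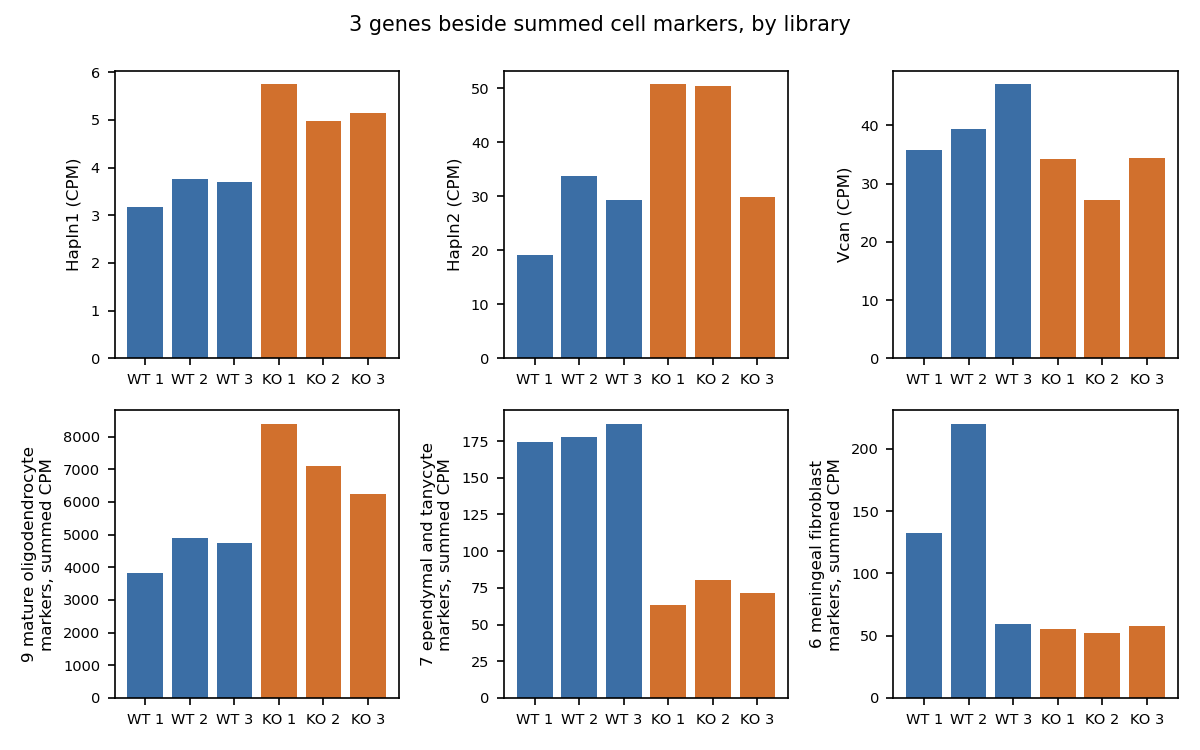
CPM of Hapln1, Hapln2 and Vcan (top) and summed CPM of marker lists for mature oligodendrocytes, ependymal cells with tanycytes, and meningeal fibroblasts (bottom), 1 bar per library, wild type in blue and knockout in orange. Hapln2 in knockout replicate 3 (29.9 CPM) is level with wild type although the oligodendrocyte sum there (6233 CPM) is not.

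The makeup of each family was taken as the percent of its summed RPKM, a share of RNA and not of protein. The versican share is too low, and the other lectican shares too high, where versican transcripts leave out long exons. Summed over the 4 lecticans, levels were 53.2, 57.9 and 55.3 RPKM in wild type against 60.7, 59.0 and 55.0 RPKM in the knockout, which overlapped. Summed over the 4 link proteins they were 36.0, 34.2 and 37.1 RPKM in wild type against 48.9, 43.4 and 39.2 in the knockout, all above wild type. An exact two-sided permutation test gave p = 0.3 for the lectican sum and 0.1 for the link protein sum, the smallest p that 3 against 3 allows.

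Brevican held 64.8 ± 3.47% of the lectican sum in wild type and 67.6 ± 2.36% in the knockout, and neurocan 29.0 ± 3.56% and 27.4 ± 1.95%. Versican held 4.38%, 4.42% and 5.54% in wild type against 3.67%, 3.01% and 4.08% in the knockout, which did not overlap. Aggrecan held 1.44 ± 0.144% and 1.45 ± 0.143%. Among link proteins Hapln4 held 74.7 ± 6.95% in wild type and 67.8 ± 5.88% in the knockout, and Hapln2 23.0 ± 6.80% and 29.5 ± 6.12%. Hapln1 held 1.92 ± 0.213% and 2.35 ± 0.175%, without overlap, and Hapln3 0.408 ± 0.0565% and 0.407 ± 0.0779%. Over these 8 comparisons the exact permutation p was 0.1 for Vcan and Hapln1, the smallest possible, and 0.4 after Benjamini-Hochberg adjustment.

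**Figure D4:**
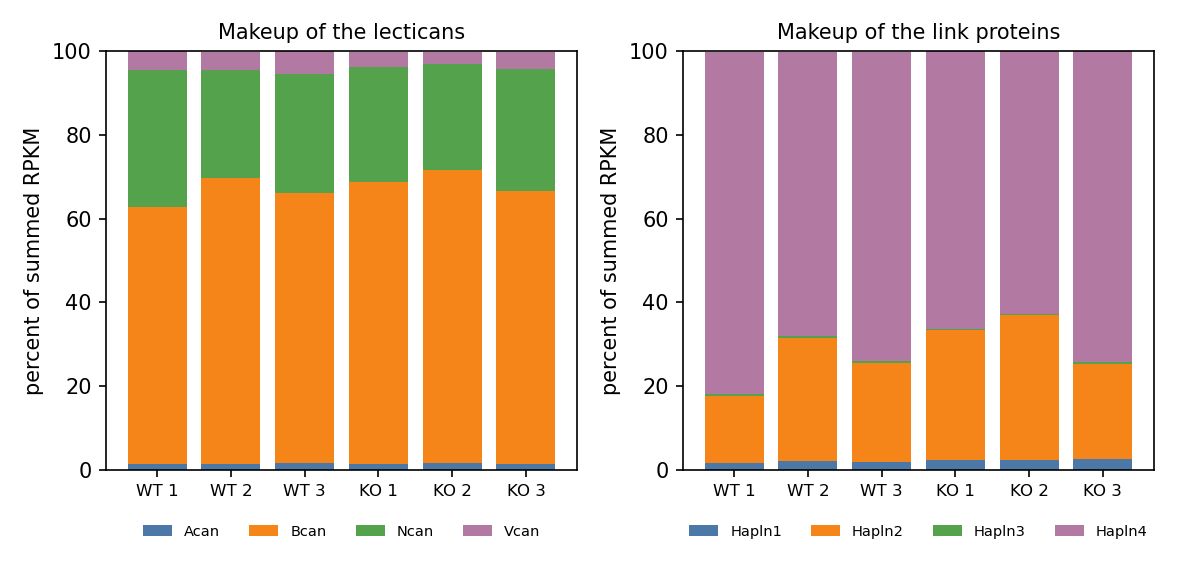
Percent of the summed RPKM held by each lectican (left) and each link protein (right), as stacked bars, 1 per library. Bcan and Ncan make up most of the lectican sum in all 6 libraries, and the Hapln2 share ranges from 15.9% in wild-type replicate 1 to 34.7% in knockout replicate 2.

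Each link protein gene lay beside a lectican gene, and in all 4 pairs no other gene of the table lay wholly between them. Genes reaching into a gap from outside were not counted. Acan and Hapln3 were 1.93 kb apart and Ncan and Hapln4 2.22 kb apart, in both cases with their ends facing. Vcan and Hapln1 also faced each other, 43.48 kb apart, while Bcan and Hapln2 ran on the same strand 16.73 kb apart. The 2 members with separate groups, Vcan and Hapln1, were neighbours, with log2 fold changes of -0.35 and 0.58. The other pairs had values of 0.13 and 0.67 (Bcan and Hapln2), -0.01 and 0.15 (Ncan and Hapln4) and 0.07 and 0.26 (Acan and Hapln3), and the difference within pairs was not tested. Exons shared with another gene covered 1.2% of Acan, 2.3% of Tnr and 0% of the other 8, and reads over such stretches were not counted.

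The rest of the net pathway was read from 8 lists with 95 genes, of which 92 were tested. As with the members, 0 of the 92 passed in edgeR, 16 were higher and 7 lower at an unadjusted p under 0.05, and the median log2 fold change was 0.005. DESeq2 called 7 of them, edgeR without a filter 9, limma-voom 0 and its version with quality weights per sample 3, against the shares of all genes given above. Among all tested genes 5.75% were higher and 7.21% lower at that unadjusted p.

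Enzymes that build hyaluronan, the backbone of the net, include Has2. It was counted 30, 22 and 24 times in wild type against 6, 10 and 13 times in the knockout, all lower (log2 fold change -1.46 ± 0.339, edgeR adjusted p 0.0807). The adjusted p of Has2 was 0.047 in limma-voom with sample quality weights and 0.0122 in edgeR without a filter on low counts. Of the 10 genes of this list 8 were negative, with a median of -0.07, and Cemip, a hyaluronan-binding protein of its breakdown, stood at -0.17 and Hyal3, a hyaluronidase, at -0.39. The ependymal and tanycyte markers were lower in the same libraries, and their part in Has2 was not tested.

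Proteases that cut lecticans and their inhibitors gave 20 tested genes, 3 higher and 3 lower at an unadjusted p under 0.05 and a median of -0.03. Adamts4, an aggrecanase that cuts brevican and is made by oligodendrocytes in the brain, had 29.4, 34.0 and 27.2 CPM in wild type and 64.7, 51.4 and 43.8 CPM in the knockout. Every knockout library was above wild type (log2 fold change 0.82 ± 0.149, edgeR adjusted p 0.0572). DESeq2 called Adamts4 (adjusted p 1.1e-06), as did limma-voom with sample quality weights (0.0267), edgeR without a filter (0.00767) and edgeR without knockout replicate 3 (0.0248). Its knockout libraries had the order of the summed oligodendrocyte markers, while in wild type Adamts4 was lowest in replicate 3 and the marker sum in replicate 1. Plat, tissue plasminogen activator, stood at -0.31 ± 0.101 (adjusted p 0.214, and 0.0214 without a filter), and Mmp15, a membrane metalloproteinase, at 0.23 ± 0.0762 (adjusted p 0.225).

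Chondroitin sulfate chains are built on the lectican core and then sulfated. The 12 genes of linker and chain synthesis ran from -0.11 to 0.28 with a median of 0.01, and 1, Chsy3, a chondroitin synthase, was higher at an unadjusted p under 0.05 (0.28 ± 0.118, adjusted p 0.336). Xylt2, a xylosyltransferase that starts the chain, stood at 0.10 and the linker enzyme gene B3gat3 at 0.10. The 11 tested genes of sulfation, epimerisation and breakdown ran from -0.21 to 0.05 with a median of -0.04, and none reached an unadjusted p under 0.05. The lowest p there belonged to the sulfotransferases Chst11 (-0.21 ± 0.0962, adjusted p 0.389) and Ust (-0.15 ± 0.0792, adjusted p 0.472) and the epimerase Dse (-0.16 ± 0.136, adjusted p 0.713).

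Matrix proteins and ligands held in nets had 12 tested genes, 0 higher and 3 lower at an unadjusted p under 0.05. Those were Sema3a, a repulsive guidance factor that nets bind (-0.30 ± 0.0985, adjusted p 0.207), Matn2, a matrilin (-0.33 ± 0.132, adjusted p 0.325), and the neuronal pentraxin Nptx2 (-0.55 ± 0.207, adjusted p 0.338). DESeq2 called Nptx2 (adjusted p 0.0293), and edgeR did without wild-type replicate 2 (0.0331). Among 10 tested receptors and membrane partners 1 was higher at that p, Ptprd, a receptor phosphatase (0.24 ± 0.0722, adjusted p 0.162), which DESeq2 called (0.0309). Rtn4r, the Nogo receptor that also binds chondroitin sulfate, stood at 0.29 ± 0.144 and Nrp1, a receptor of Sema3a, at 0.18 ± 0.0847.

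Of 2 lists for the cells and sites that carry this matrix, all tested members were positive. Among all 20257 tested genes 10352 were positive, and 5.75% were higher at an unadjusted p under 0.05. The 10 nodal and paranodal genes had a median of 0.30 with 7 higher at an unadjusted p under 0.05, led by the axonal adhesion protein gene Cntn2 (0.39 ± 0.104, adjusted p 0.130), the potassium channel gene Kcna2 (0.37 ± 0.107, adjusted p 0.159) and the paranodal gene Cntnap1 (0.31 ± 0.105, adjusted p 0.238). The 7 fast-spiking neuron genes had a median of 0.33 with 4 higher, led by the synaptotagmin gene Syt2 (0.69 ± 0.157, adjusted p 0.113), Erbb4, a neuregulin receptor (0.28 ± 0.0831, adjusted p 0.169), and Lhx6, a factor of interneurons (0.47 ± 0.171, adjusted p 0.268). Syt2 had 50.1, 57.1 and 57.8 CPM in wild type and 107.9, 89.8 and 69.1 CPM in the knockout. Limma-voom with quality weights called Syt2 (adjusted p 0.0328). DESeq2 called Syt2 (5.48e-05), Cntn2 (0.00867) and Kcna2 (0.0171), and without knockout replicate 3 edgeR called Syt2 (0.0142), Cntn2 (0.033) and Cntnap1 (0.0479). Without a filter edgeR called 5 of the nodal list, among them Cntn2, Kcna2 and Cntnap1, and Erbb4 (0.0285). The oligodendrocyte and neuron marker sums were higher in the same libraries, the neuron sum with only 1 of its 8 markers separate between the groups. The part of either was not tested.

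**Figure D5:**
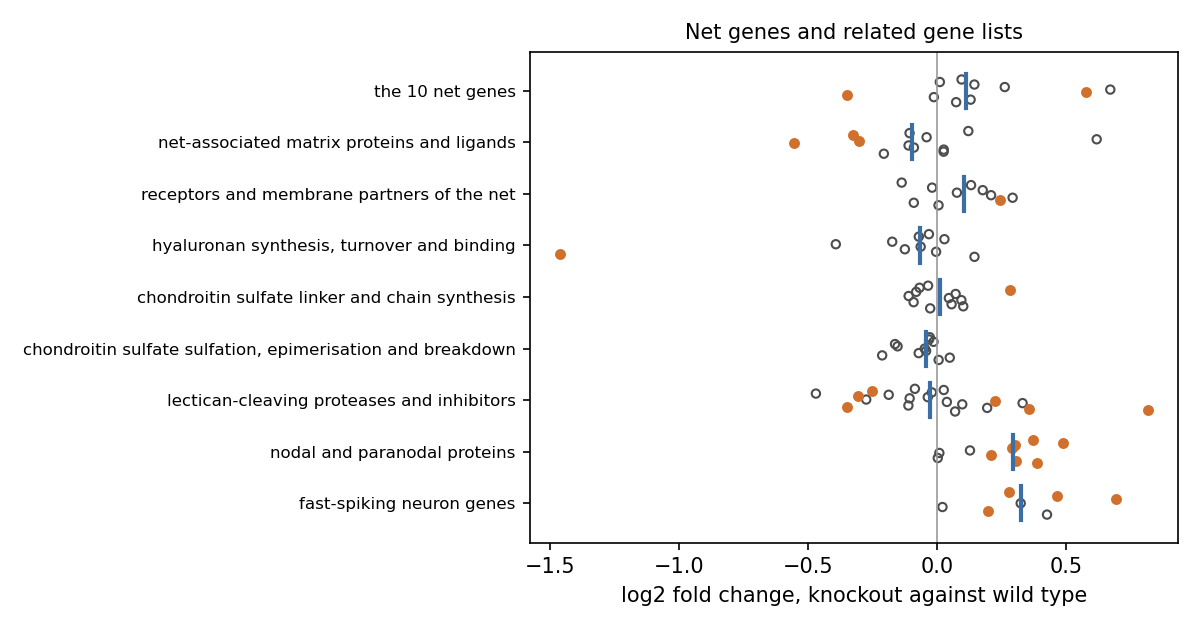
Log2 fold change, knockout against wild type, of the 10 net genes and of the tested genes of 8 related lists; each point is a gene, filled orange at an unadjusted p under 0.05, and blue bars are list medians. Medians run from -0.10 for net-associated matrix proteins and ligands to 0.33 for fast-spiking neuron genes.

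The genes whose levels ran most like each member across the 6 libraries were found by Pearson's r of log2 CPM among genes with a mean of at least 5 CPM (11769 genes, each member left out of its own search). With only 6 points, the highest r among so many genes can come near 1 by selection alone, and the r are descriptions. The 2 nearest to Hapln1 were Tspan2, a tetraspanin of oligodendrocytes (r = 0.992), and Ttll7, a tubulin glutamylase (0.991). Hapln2 ran with Slc6a8, the creatine transporter (0.999), and Atp8b2 (0.996), Vcan with Nelfe (0.990) and Nup98 (0.985), and Bcan with Mtmr11 (0.999) and Fmnl3 (0.991). Ncan was nearest to Hmgxb3 (0.997) and Foxp4 (0.994), Acan to Las1l (0.976) and Map3k20 (0.967), and Hapln4 to Ncoa7 (0.996) and Fam172a (0.983). Tnr was nearest to Clstn3 (0.999) and Dnajc5 (0.993), Ptprz1 to Pak1 (0.991) and Hnrnpul2 (0.991), and Hapln3 to Slc1a1 (0.986) and Golph3 (0.976). No member was among the 2 nearest genes of another, but Hapln1 and Hapln3, with means under 5 CPM, were not in the genes searched and could not have been.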

How the data were processed

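RNA of mouse hypothalamus was extracted with RNeasy columns and made into Illumina TruSeq libraries, per the labels' protocols. For the 6 libraries the authors deposited unnormalised counts of fragments for each gene, in 1 table. The submitters' processing notes name STAR 2.7.10a and GRCm39. Fragments were counted over exons of the RefSeq annotation of mm39 with featureCounts, per the file headers. Its version is 2.0.0 there and 2.0.3 in the notes. No strand, multi-mapping or multi-gene option is in the command of the header, so strand was not used and reads of several genes or places were by default not counted. Columns were matched to samples by shared library codes, with 0 unused columns and 0 rows without a gene name.

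Counts were tested with edgeR 4.0.16 (R 4.3.3; TMM scaling, default expression filter with a minimum count of 10, robust quasi-likelihood F-test, 20257 genes), with Benjamini-Hochberg adjustment and a threshold of 0.05. The SE was taken from the log2 fold change and F (its size over root F), and intervals use the test's degrees of freedom. CPM are TMM-scaled, and RPKM divide them by exon length. Alternatives were RLE factors, library totals, no filter, at least 1 CPM in 3 libraries, DESeq2 1.42.0, limma-voom (limma 3.58.1) with and without sample quality weights, a replicate block, each library left out, and both first replicates left out. Named genes were the 10 members, the 3 genes of lowest p in each related list, the 2 most alike genes per member, and Ncoa1. The markers Pdgfra, Pomc, Agrp, Pitx1, Cga, Gh, Prl and Snap25 were named after their values were seen. The members and lists were chosen with earlier results of these data known. The fits were also run on simulated counts with set fold changes, drawn for each gene on its own. The outcome is not reported here, and such counts hold no shared shift in cell makeup or dissection.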

Additional observations from a re-analysis of the deposited data

How the results depend on the processing

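All 10 members stayed under the call threshold with RLE factors, library totals, the stricter filter, both limma-voom fits, the replicate block and with any 1 library or both first replicates left out, while DESeq2 called 1 member and edgeR without a filter 2, against 0 in the analysis reported. The cause was not tested. Hapln3 was not among the genes left by the filter of at least 1 CPM in 3 libraries. Hapln1, Hapln2, Hapln3, Hapln4, Bcan and Ptprz1 stayed positive and Vcan negative under every alternative that tested them, but not at one size: with 1 library left out Vcan ran from -0.435 to -0.229 (without wild-type replicate 3), Bcan from 0.064 (without wild-type replicate 1) to 0.204, and, lowest without wild-type replicate 2, Hapln4 from 0.055 to 0.22, Hapln3 from 0.142 to 0.366 and Ptprz1 from 0.044 to 0.149. Members near 0 changed sign: with 1 library left out Acan ran from -0.018 to 0.159, Ncan from -0.058 to 0.054 and Tnr from -0.034 to 0.044. Leaving out both first replicates gave 0.012 for Ncan and -0.001 for Tnr, and library totals gave -0.018 for Tnr.

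The number of genes called, 169, was 66 with library totals, 966 without a filter, 810 in DESeq2, 84 with at least 1 CPM in 3 libraries, 103 in limma-voom, 401 with sample quality weights and 29 without both first replicates, and 36 to 260 with 1 library left out. The related lists held 0 calls, 9 without a filter, 7 with DESeq2, 3 with sample quality weights and 0 to 4 with 1 library left out. The replicate block called 155 genes and 0 members. Same-numbered libraries correlated at -0.206, 0.351 and 0.224 in their deviations from the group means, so the numbers were not taken as pairs.

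The group mean of RPKM summed over the 10 members ran from 136.9 to 140.3 in wild type and 148.0 to 155.4 in the knockout with 1 library left out. Single libraries were wider apart within groups, at 137.3, 136.4 and 143.3 RPKM in wild type and 161.0, 149.8 and 146.3 RPKM in the knockout. The exact permutation test gave p = 0.1 for this sum, the smallest that 3 against 3 allows. Differences in family shares changed sign for Acan (-0.0779 to 0.0877 points with 1 library left out), Ncan (-3.21 to 0.291) and Hapln3 (-0.0452 to 0.0295). Those of Hapln2 (2.95 to 9.86 points), Hapln4 (-10.2 to -3.29) and Bcan (1.15 to 4.62) kept their sign and were smallest without wild-type replicate 1. Depth limited Hapln3, with 18 to 35 counts a library, and Has2, with 6 to 30.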
